A study of Mus musculus with 11 samples.

Results

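Autophagy and lysosome regulation was followed here through 41 genes that encode the machinery of autophagy, its cargo receptors, lysosomal membrane proteins and the kinases and transcription factors that control them. The members were taken by gene symbol from a list of names, a rule that reads no measured value, and all 41 were among the 13734 genes measured in mouse glomeruli, the filtering units of the kidney. The lowest count of a member in a library was 374, for Wipi1, and all 41 passed the filter on low counts. Neither genotype nor puerarin gave a difference past the test in any of the 41, where 0% to 0.182% of all genes passed in these comparisons. Between the 2 forms in which the libraries are named, 3 passed, a share near that of all genes.

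The db/db puerarin group (n = 3 libraries) came from db/db mice, which carry 2 mutant leptin receptor alleles and are a model of obesity and type 2 diabetes with kidney disease, which received puerarin, an isoflavone glycoside of kudzu root, at 20 mg per kg per day by gavage in 5% DMSO. The db/db vehicle group (n = 4) had the same genotype and received 5% DMSO. The db/m vehicle group (n = 4) consisted of heterozygous littermates, which carry 1 normal allele and are not diabetic, and also received 5% DMSO. All 3 groups are labelled male on the BKS background, although the strain field names C57BL/6J, and were treated for 6 weeks from 10 weeks of age. Nothing in the labels ties a library to a single animal. The p-values therefore measure the spread among libraries, part of which may be technical.

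Autophagy is the route by which a cell encloses part of its own cytoplasm in a double membrane and delivers it to the lysosome for degradation. Nutrient-sensing kinases switch it on, small ubiquitin-like proteins of the ATG8 family are attached to the growing membrane, and receptors that bind both cargo and ATG8 proteins fill it. Podocytes, the non-dividing epithelial cells of the glomerulus, are known for a high basal rate of autophagy. The process is set largely by phosphorylation, lipid conjugation and degradation of these proteins, which mRNA levels do not measure.

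Values are given in CPM, counts scaled to a common library total. Total counts per library ran from 35369703 to 44244460, and a read shared by several transcripts of a gene appears to have entered the count of each. Podocyte markers were present in all 11 libraries, from Lmx1b at 16.5 to 37.8 CPM to Podxl at 4500 to 7200 CPM, as the label of glomeruli requires. Tubule markers were present too: the 9 loop and distal tubule markers summed to 1610 to 7940 CPM in db/db puerarin libraries, 4530 to 12300 in db/db vehicle libraries and 2570 to 9760 in db/m libraries. The titles of 5 libraries hold a number that starts with S and those of the other 6 a tag for the group; each group has both forms, and what the form marks is not stated. The libraries db/db puerarin 2 and 3 went against the male label, with Xist at 528 and 819 CPM, against 0.519 to 6.47 CPM in the other 9, and Ddx3y, a Y-linked gene, at 3.06 and 0.909 CPM, against 50.3 to 85.2. Without them the puerarin group is 1 library, and 0 members passed in each comparison between groups. Bulk RNA cannot tell fewer cells of a type from less RNA per cell.

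The transcription factors TFEB and TFE3, both encoded by members, bind the hexamer CACGTG, which is known from the promoters of many lysosomal genes. RefSeq promoter windows (GRCm38.p6, 250 bases before to 50 bases after a start) matched 34 of the 41 members by symbol. CACGTG, which reads the same on both strands, was in the windows of 6 of the 34 (17.6%; Atg14, Atg3, Atg5, Atg7, Bnip3 and Lamp1), compared with 11.5% of the 10615 measured genes with an entry and 7.15% of all 32851 windows. GTCACGTG, on either strand and overlapping CACGTG, was in 4 of the 34 (11.8%), compared with 4.58% of measured genes. The full palindrome that contains GTCACGTG was also searched for. It was in 0 of the 34, compared with 0.735% of measured genes. The windows with the most matches were those of Lamp1, with 4 copies beginning 61, 45, 28 and 15 bases before the start, and of Atg3, with 2 copies beginning 94 and 71 bases before it. These are shown with Atg5 and Bnip3, as the 150 bases before each start on the strand of the gene, with CACGTG in capitals. Windows are shown where a copy lies wholly in those bases and the start is near that of a counted transcript. The start of the Atg7 window lies 28000 bases from the nearest such start, and the copy of Atg14 begins 1 base before its start. The positions are chr8:13159011-13159160 (+) for Lamp1, chr16:45158679-45158828 (+) for Atg3, chr10:44268189-44268338 (+) for Atg5 and chr7:138909507-138909656 (-) for Bnip3.
Lamp1: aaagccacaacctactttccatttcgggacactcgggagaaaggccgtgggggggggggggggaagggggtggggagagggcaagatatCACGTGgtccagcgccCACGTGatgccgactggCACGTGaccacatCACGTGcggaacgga
Atg3: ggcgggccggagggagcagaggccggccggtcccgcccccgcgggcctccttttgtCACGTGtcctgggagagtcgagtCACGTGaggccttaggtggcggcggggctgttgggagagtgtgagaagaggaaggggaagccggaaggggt
Atg5: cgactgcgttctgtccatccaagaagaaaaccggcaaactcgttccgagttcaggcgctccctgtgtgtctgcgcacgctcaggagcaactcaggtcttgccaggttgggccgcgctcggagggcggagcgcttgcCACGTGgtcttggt
Bnip3: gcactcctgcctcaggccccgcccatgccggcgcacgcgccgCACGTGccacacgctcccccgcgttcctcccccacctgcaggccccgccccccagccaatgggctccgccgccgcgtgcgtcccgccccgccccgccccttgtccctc
A match of letters is a description of the window and does not show binding.

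Expressed per length of the highest transcript, the members spanned from 386 CPM per kb for Gabarapl1 to 7.2 CPM per kb for Atg2a (means over 11 libraries). Next in order were Lamp1 at 326, Sqstm1 at 289, Gabarap at 215, Pink1 at 164 and Lamp2 at 128 CPM per kb. Of the initiation and nucleation steps, Ulk1 was at 19.4, Rb1cc1 at 11.6, Pik3r4 at 8.95 and Atg14 at 7.95 CPM per kb. Becn1, the scaffold of the lipid kinase complex, was at 71.2 CPM per kb. Of all neighbours in this order, 3 pairs had ranges over libraries that did not overlap, below Sqstm1, below Gabarap and below Becn1. All other neighbours overlapped, so their order is not fixed by these data. The order also assumes that a read shared by transcripts was counted in full for each. Gabarapl1 averaged 348 ± 121 CPM per kb with puerarin, 428 ± 141 CPM per kb in db/db vehicle and 371 ± 103 CPM per kb in db/m libraries (SD, n = 3, 4 and 4), and Lamp1 averaged 322 ± 5.03 CPM per kb with puerarin, 341 ± 12.4 CPM per kb in db/db vehicle and 314 ± 26.9 CPM per kb in db/m libraries.

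**Figure D1:**
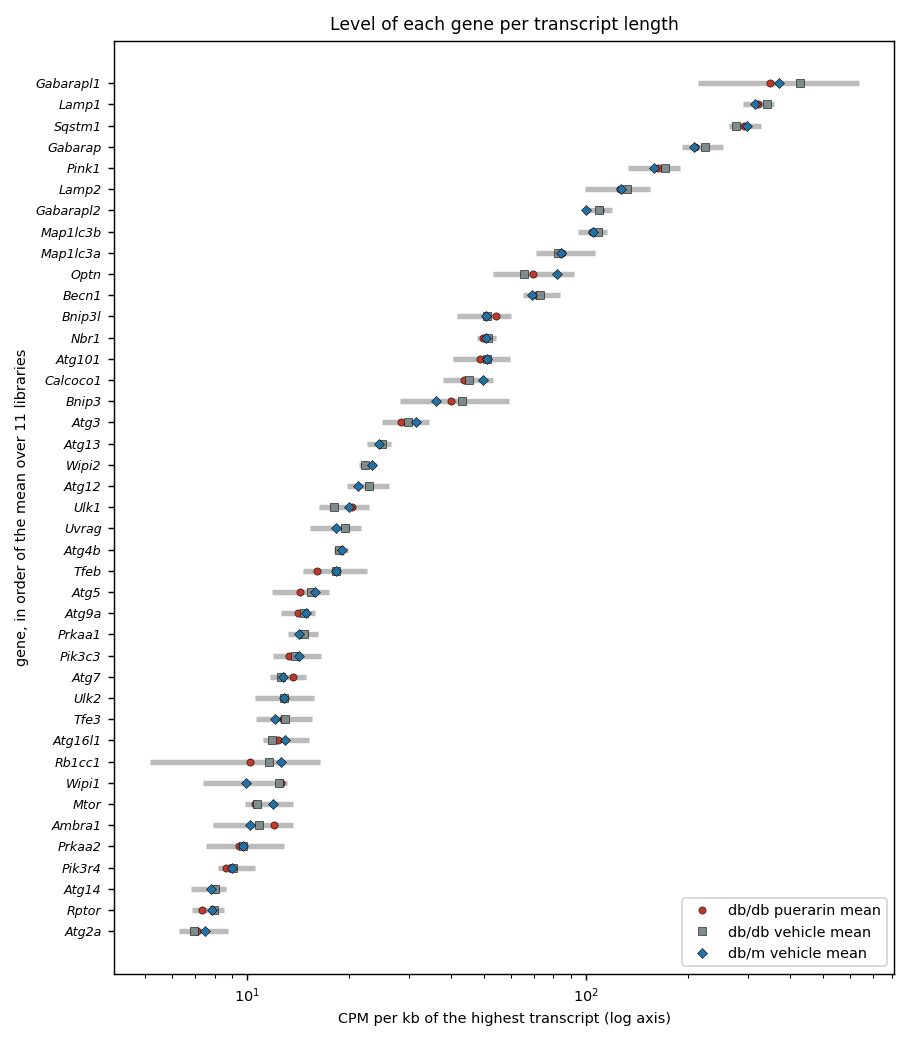
Level of each of the 41 genes in CPM per kb of its highest transcript, on a log axis, in order of the mean over 11 libraries; points are group means and the grey bar runs from the lowest to the highest library. Gabarapl1 has the highest mean and one of the widest ranges, from 213 to 638 CPM per kb, and the 3 group means of most genes lie close together.

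As a group the members were steady. The median SD of log2 CPM over the 11 libraries was 0.14 for members and 0.22 for all genes, and 35 of the 41 members lay below 0.22. No comparison with genes of like level was made. Atg4b, the protease that primes ATG8 proteins, was the steadiest, at 33.5 to 36.2 CPM (SD 0.04 on the log2 scale). Wipi2 and Nbr1 followed with SDs of 0.05 and 0.06. Rb1cc1, which encodes the FIP200 scaffold of the ULK1 complex, varied most, from 22.3 CPM in db/db puerarin 2 to 71.9 CPM in db/db vehicle S152 (SD 0.49). Gabarapl1 (SD 0.45) and Bnip3 (SD 0.34) came next. The level of the 41 genes together, as the mean of log2 CPM minus its mean over libraries, lay between -0.04 and 0.02 in db/db puerarin, between -0.01 and 0.04 in db/db vehicle libraries and between -0.04 and 0.05 in db/m libraries.

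**Figure D2:**
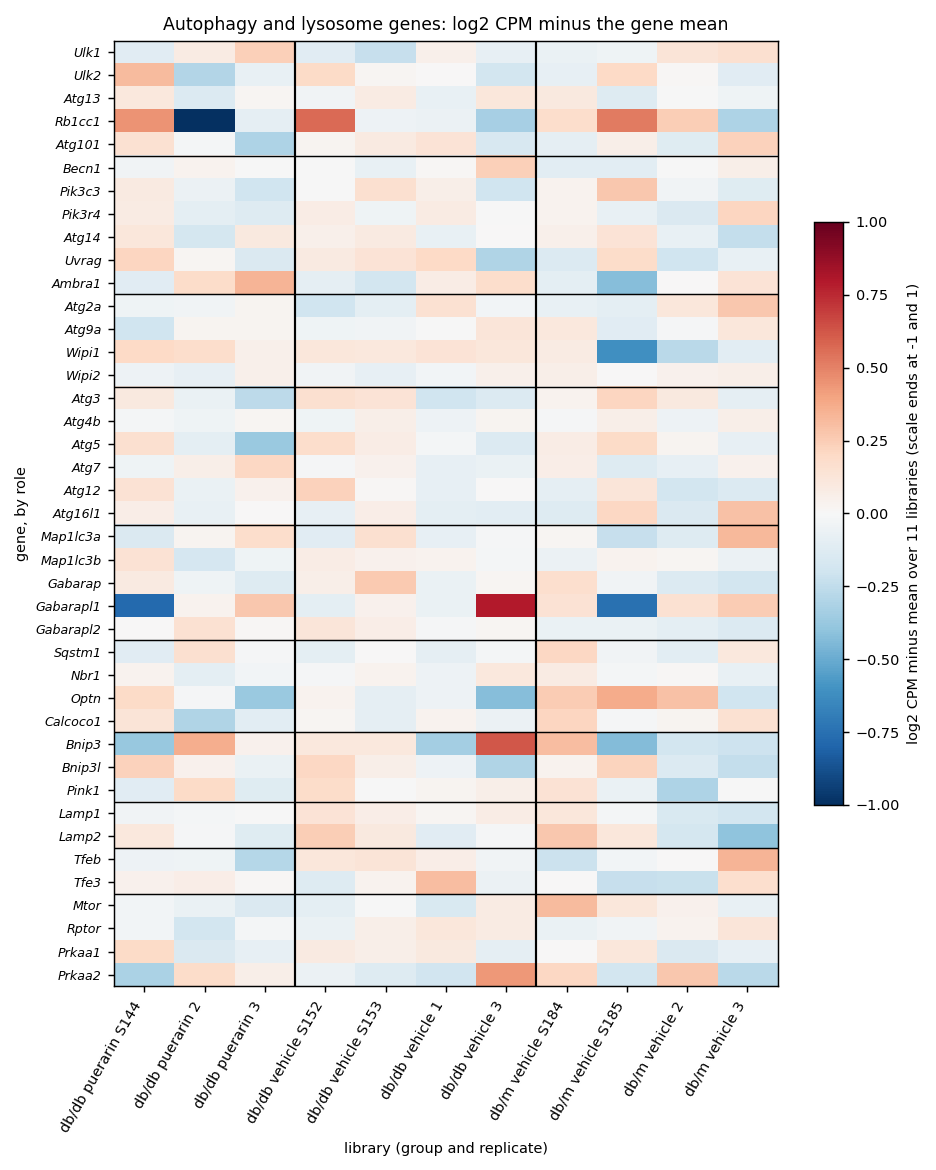
Log2 CPM of each member minus its mean over the 11 libraries, with genes in rows by role (black lines separate roles) and libraries in columns by group; red is above and blue below the mean, and colours end at -1 and 1. Most cells are pale; the strong colours are in the rows of Rb1cc1, Gabarapl1 and Bnip3, and they do not follow the group borders.

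For genotype, db/db vehicle over db/m vehicle, 0 of the 41 members passed edgeR's quasi-likelihood test at an adjusted p under 0.05, where 0.0437% of all genes did, all of them lower. At an unadjusted p under 0.05 there were 2 members (4.88%, compared with 10.3% of all genes), and DESeq2 called 0 members and 2.11% of all genes, with 3 members and 11.5% of all genes at an unadjusted p under 0.05. The median log2 fold change was 0.02 for members and 0.02 for all genes, with members between -0.32 and 0.33. For 36 of the 41 the 95% interval lay inside a 1.5-fold change in either direction, as it did for 69% of all genes. The 5 members with wider bounds were Rb1cc1, Wipi1, Gabarapl1, Optn and Bnip3. Groups did not overlap for 2 members, Wipi1 and Gabarapl2, both higher in db/db vehicle libraries, where 4.96% of all genes did not overlap. Among cell type markers, all 15 podocyte markers had a negative log2 fold change (median -0.18, 1 past the test). All 12 myeloid markers had a positive one (median 1.14, 0 past the test). The level of the myeloid list was 2.59 in db/db vehicle 1 and -0.11, -0.22 and 0.71 in db/db vehicle S152, S153 and 3. In db/m libraries it was between -1.27 and -0.28. The part of these markers in the members' values was not tested.

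Between db/db mice given puerarin and db/db mice given vehicle, 0 of the 41 members passed the same test, and 0% of all genes did. At an unadjusted p under 0.05 there were also 0 members, compared with 4.21% of all genes, and DESeq2 gave 0 members by both counts, compared with 0.109% and 5.21% of all genes. The median log2 fold change was -0.02 for members and for all genes, and members ran from -0.44 to 0.14. The interval lay inside a 1.5-fold change for 38 of the 41, compared with 67.6% of all genes, and the exceptions were Rb1cc1, Gabarapl1 and Bnip3. Lamp1 and Tfeb did not overlap between the groups, both lower with puerarin, where 3.23% of all genes did not overlap.

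Against db/m mice, puerarin-treated db/db mice likewise had 0 members past the test, where 0.182% of all genes passed (0.146% higher and 0.0364% lower). Wipi1 alone had an unadjusted p under 0.05 (2.44% of members, compared with 10.3% of all genes), and DESeq2 called 0 members and 2.16% of all genes, with 2 members and 11.2% of all genes at an unadjusted p under 0.05. Medians were -0.01 for members and for all genes, and members ran from -0.27 to 0.35. The interval was inside a 1.5-fold change for 37 of the 41, compared with 64.5% of all genes. Gabarapl2 was the 1 member without overlap, where 7.65% of all genes had none. Each pair of these 3 comparisons shares a group of libraries, so they are not independent.

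**Figure D3:**
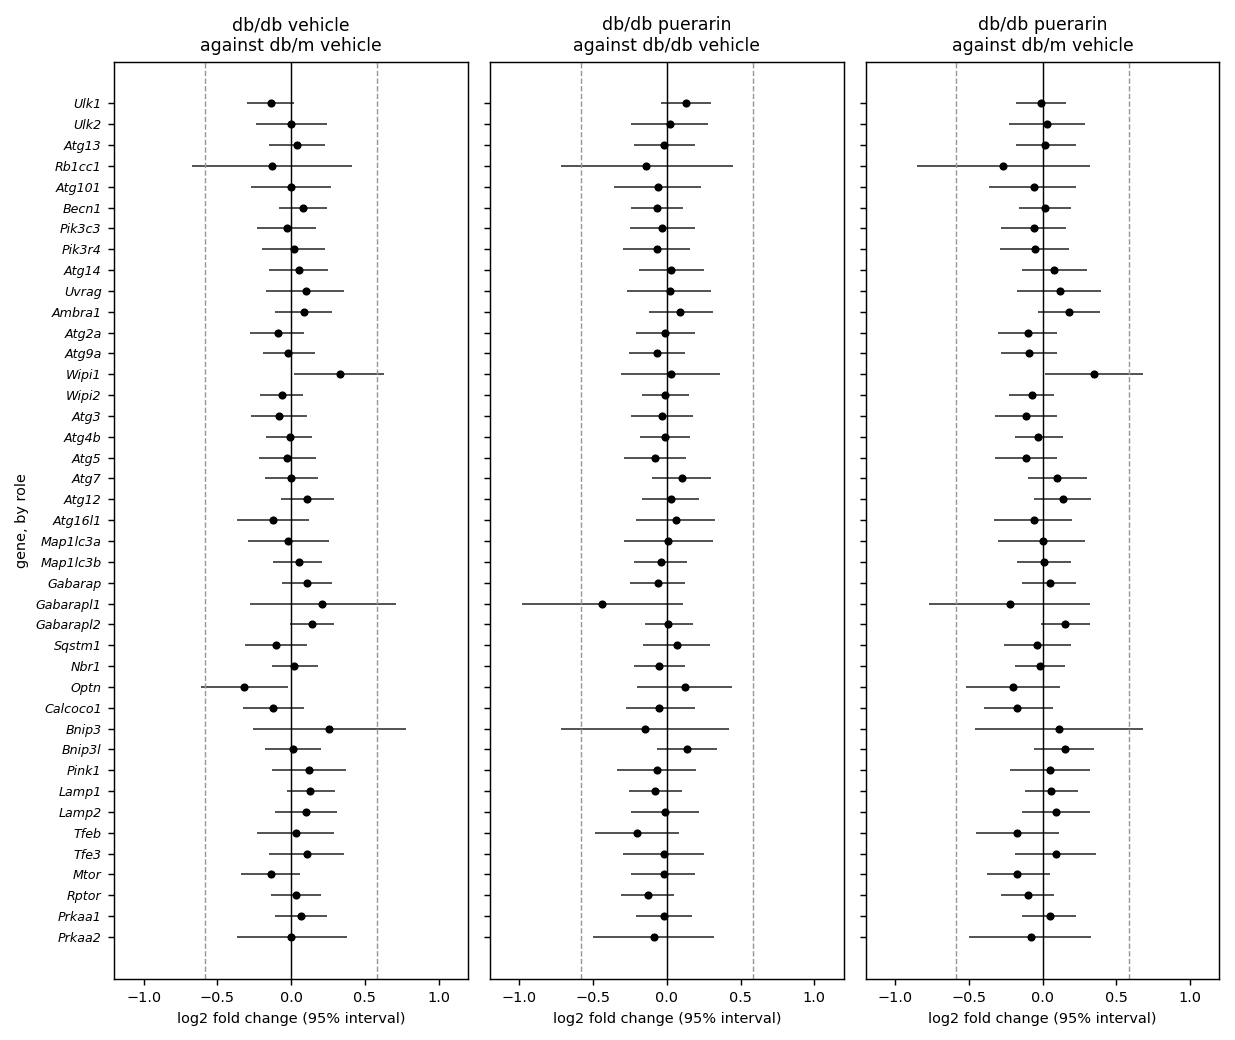
Log2 fold change of each member with its 95% interval in the 3 comparisons between groups, from the edgeR fit with name form as a term; dashed lines mark a 1.5-fold change. Nearly all intervals include 0 and lie inside the dashed lines, and those of Rb1cc1, Gabarapl1 and Bnip3 are the widest in each panel.

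Values by library are given below in the order S144, 2 and 3 for db/db puerarin, S152, S153, 1 and 3 for db/db vehicle, and S184, S185, 2 and 3 for db/m vehicle. They are CPM summed over the transcripts of a gene and are not comparable between genes. Within name forms, S144 is the only puerarin library with an S number. Those with a group tag are db/db puerarin 2 and 3, which go against the male label.

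Initiation is run by the ULK1 kinase complex (Ulk1, Ulk2, Atg13, Rb1cc1 and Atg101), and 0 of these 5 genes passed in any comparison between groups. Ulk1, the kinase that starts the process, had 115, 132 and 147 CPM in db/db puerarin, 115, 106, 129 and 118 CPM in db/db vehicle and 119, 121, 136 and 139 CPM in db/m libraries. The groups overlapped, and in each the S-number libraries were the lowest. Its log2 fold change was 0.13 for puerarin against vehicle (SE 0.08, edgeR adjusted p = 0.967) and -0.14 for genotype on vehicle (SE 0.07, adjusted p = 0.558). Rb1cc1 averaged 44.8 ± 22.1 CPM in db/db puerarin, 51.1 ± 14.4 CPM in db/db vehicle and 55.4 ± 12.5 CPM in db/m libraries (SD, n = 3, 4 and 4), a spread within groups as large as its mean differences.

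Nucleation depends on the class III phosphatidylinositol 3-kinase complex, here Pik3c3, Pik3r4, Becn1, Atg14, Uvrag and the regulator Ambra1. None of these 6 passed between groups, and their log2 fold changes stayed between -0.07 and 0.18 over the 3 comparisons. Becn1 had 87.5, 91.9 and 89.8 CPM in db/db puerarin, 89.4, 85.3, 90.5 and 106 CPM in db/db vehicle and 83.4, 83.3, 89.6 and 93.8 CPM in db/m libraries. The highest value was in db/db vehicle 3, and the other 10 libraries lay between 83.3 and 93.8 CPM. In the annotation 43.9% of the exon bases of Becn1 overlap those of Cntd1 on the opposite strand, and with no stated use of strand the reads cannot be told apart. Ambra1, which links BECN1 to the cytoskeleton and to ubiquitin ligases, had 62.3, 76.6 and 85.2 CPM in db/db puerarin, 63.1, 59.2, 71 and 76 CPM in db/db vehicle and 62.8, 50, 67.3 and 73.9 CPM in db/m libraries. Its 2 highest values were both in puerarin libraries, but the groups overlapped, and the log2 fold change of puerarin against db/m was 0.18 (SE 0.1, edgeR adjusted p = 0.586).

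Membrane supply and phosphoinositide reading fall to Atg2a, Atg9a, Wipi1 and Wipi2. Wipi1, which encodes a protein that binds phosphatidylinositol 3-phosphate on the growing membrane, had 14.8, 14.6 and 13.4 CPM in db/db puerarin, 14, 13.9, 14.2 and 14 CPM in db/db vehicle and 13.7, 8.45, 10.7 and 12 CPM in db/m libraries. All 4 db/db vehicle libraries lay above all 4 db/m libraries, and the lowest puerarin library lay below the highest db/m library. It averaged 14 ± 0.13 CPM in db/db vehicle and 11.2 ± 2.21 CPM in db/m libraries (SD, n = 4 each). The log2 fold change was 0.33 (SE 0.14), with 0.38 within S-number and 0.32 within group-tag libraries, and the edgeR adjusted p was 0.448. Without db/m S185 the log2 fold change of Wipi1 was 0.2. Puerarin-treated db/db against db/m libraries gave 0.35 (SE 0.15, adjusted p = 0.452). Wipi2 stayed between 52.3 and 57.6 CPM in all libraries.

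Conjugation of ATG8 proteins to lipid uses Atg3, Atg4b, Atg5, Atg7, Atg12 and Atg16l1, and 0 of these 6 passed between groups. Atg5, whose protein is joined to ATG12, had 49.2, 41.2 and 34.1 CPM in db/db puerarin, 49.8, 46.3, 43.4 and 40.1 CPM in db/db vehicle and 46.3, 50.3, 44.8 and 41.6 CPM in db/m libraries. The groups overlapped, and the S-number libraries were the highest of each group. Atg7, the activating enzyme of both conjugation reactions, had 86.9, 93.1 and 103 CPM in db/db puerarin, 88.9, 92.2, 84.4 and 85.6 CPM in db/db vehicle and 93.6, 81.6, 84.6 and 91.9 CPM in db/m libraries. Its log2 fold change was 0.1 (SE 0.09, edgeR adjusted p = 0.967) for puerarin against vehicle and 0 (SE 0.08, adjusted p = 0.995) for genotype on vehicle, with an interval of -0.18 to 0.18.

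The ATG8 family (Map1lc3a, Map1lc3b, Gabarap, Gabarapl1 and Gabarapl2) encodes the proteins that coat the autophagosome, and LC3B is the usual protein marker of the process. Map1lc3b had 124, 99.9 and 109 CPM in db/db puerarin, 118, 116, 115 and 111 CPM in db/db vehicle and 108, 115, 114 and 108 CPM in db/m libraries. Both the highest and the lowest library were in the puerarin group. The log2 fold change was -0.04 (interval -0.22 to 0.14) for puerarin against vehicle and 0.05 (interval -0.12 to 0.21) for genotype on vehicle. Map1lc3a averaged 106 ± 11.4 CPM in db/db puerarin, 103 ± 8.8 CPM in db/db vehicle and 105 ± 18.2 CPM in db/m libraries (SD, n = 3, 4 and 4). Its libraries were 94.1, 106 and 117 CPM in db/db puerarin, 96, 116, 98 and 103 CPM in db/db vehicle and 105, 88.6, 94.9 and 130 CPM in db/m libraries, with db/m vehicle 3 the highest.

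Gabarapl2 was the only family member whose db/db and db/m libraries did not overlap. It had 64.8, 72 and 65.1 CPM in db/db puerarin, 70.3, 67.9, 64.3 and 65.5 CPM in db/db vehicle and 61.8, 61.9, 60.3 and 59 CPM in db/m libraries. All 7 db/db libraries lay above all 4 db/m libraries. The share of all genes with such a split was not computed. Without overlap were 4.96% of all genes between db/db vehicle and db/m, and 7.65% between db/db puerarin and db/m. Gabarapl2 means were 67.3 ± 4.1 CPM in db/db puerarin, 67 ± 2.67 CPM in db/db vehicle and 60.8 ± 1.38 CPM in db/m libraries (SD, n = 3, 4 and 4). The log2 fold change was 0.15 (SE 0.07) for puerarin-treated db/db over db/m and 0.14 (SE 0.07) for db/db vehicle against db/m, with edgeR adjusted p-values of 0.523 and 0.526. Within name forms the vehicle comparison gave 0.16 in S-number and 0.12 in group-tag libraries. Processed pseudogenes share 20.9% of the Gabarapl2 transcript at 95% identity or more, as they share 14.9% of that of Map1lc3b, so reads of both genes could be split.

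Gabarapl1 (NM_020590, mm10 chr6:129533192-129542331, plus strand), whose mean per length was the highest of the 41 but overlapped that of Lamp1 over libraries, had 238, 419 and 493 CPM in db/db puerarin, 381, 420, 389 and 707 CPM in db/db vehicle and 452, 243, 453 and 486 CPM in db/m libraries. One library stood high, db/db vehicle 3, and 2 stood low, db/db puerarin S144 and db/m S185, while the other 8 lay between 381 and 493 CPM. Means were 384 ± 131 CPM in db/db puerarin, 474 ± 156 CPM in db/db vehicle and 409 ± 111 CPM in db/m libraries (SD, n = 3, 4 and 4). The log2 fold change for puerarin against vehicle, -0.44 (edgeR adjusted p = 0.967, SE 0.25), was the largest of the 41 in that comparison. It was -0.75 within S-number and -0.21 within group-tag libraries, -0.26 without db/db puerarin S144, -0.25 without db/db vehicle 3 and -0.74 without db/db puerarin 2 and 3.

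Loop, distal tubule and collecting duct markers were at their extremes in the libraries where Gabarapl1 was. The level of the 9 loop and distal tubule markers (mean of log2 CPM minus its mean over libraries) was lowest in db/db puerarin S144, at -1.77, and in db/m S185, at -1.42, and highest in db/db vehicle 3, at 1.09. For the 10 collecting duct markers it was -1.86 in db/db puerarin S144, -1.4 in db/m S185 and 1 in db/db vehicle 3. The 12 proximal tubule markers did not have this order: they were lowest in db/db vehicle 1, at -1.23, highest in db/m S184, at 1.28, and at -0.03 in db/m S185. With the mean level of all 3 tubule lists as a covariate, the log2 fold change of Gabarapl1 was -0.13 for puerarin against vehicle (adjusted p = 0.796) and 0.03 for genotype on vehicle (adjusted p = 0.928). This covariate includes the proximal tubule markers, which had another order. Whether tubule content sets the Gabarapl1 values was not tested. The annotation also places 28.3% of the Gabarapl1 exon bases opposite a transcript of the other strand, 1700101I11Rik.

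Cargo receptors bring ubiquitinated proteins and organelles to the autophagosome (Sqstm1, Nbr1, Optn and Calcoco1). Sqstm1, which encodes p62 and is itself degraded by autophagy, had 657, 794 and 704 CPM in db/db puerarin, 665, 711, 666 and 701 CPM in db/db vehicle and 821, 695, 661 and 764 CPM in db/m libraries. The groups overlapped throughout, and log2 fold changes were 0.07 (interval -0.16 to 0.29) for puerarin against vehicle and -0.1 (interval -0.31 to 0.11) for genotype on vehicle. Optn, which encodes optineurin, had the smallest p of the 41 in the genotype comparison on vehicle. Its values were 123, 107 and 83.1 CPM in db/db puerarin, 110, 101, 104 and 80.2 CPM in db/db vehicle and 128, 139, 132 and 93.9 CPM in db/m libraries. In every group the library with tag number 3 was the lowest, and the groups overlapped. Means were 98.8 ± 13 CPM in db/db vehicle and 123 ± 20.2 CPM in db/m libraries (SD, n = 4 each), a difference of -0.32 on the log2 scale (edgeR adjusted p = 0.44, SE 0.13), with -0.34 within S-number and -0.29 within group-tag libraries. Without db/m vehicle 2 it was -0.21.

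Mitophagy, the removal of mitochondria, was represented by Bnip3, Bnip3l and Pink1, and 0 of the 3 passed between groups. Bnip3, a hypoxia-induced receptor on mitochondria, had 32.4, 54.3 and 43.5 CPM in db/db puerarin, 45.3, 45.5, 33.3 and 64.9 CPM in db/db vehicle and 52.4, 31.2, 37.1 and 36.6 CPM in db/m libraries. The highest library was db/db vehicle 3 and the lowest db/m S185, and the groups overlapped. A near-identical copy covers 94.2% of the Bnip3 transcript, so its level is uncertain. Bnip3l, its paralogue, had 122, 107 and 99 CPM in db/db puerarin, 120, 108, 100 and 84.1 CPM in db/db vehicle and 106, 121, 94.2 and 87.7 CPM in db/m libraries. In each group the libraries with S numbers were at the top. Its log2 fold change was 0.14 (SE 0.09, edgeR adjusted p = 0.967) for puerarin against vehicle and 0.01 (SE 0.08, adjusted p = 0.979) for genotype on vehicle.

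The lysosomal membrane is represented by Lamp1 and Lamp2, whose heavily glycosylated proteins line it. Lamp1 (NM_010684, chr8:13159161-13175338, plus strand) had 858, 867 and 875 CPM in db/db puerarin, 964, 918, 891 and 926 CPM in db/db vehicle and 950, 864, 788 and 773 CPM in db/m libraries. All puerarin libraries lay below all db/db vehicle libraries and inside the range of db/m libraries. Means were 867 ± 8.42 CPM in db/db puerarin, 924 ± 30.3 CPM in db/db vehicle and 844 ± 81.3 CPM in db/m libraries (SD, n = 3, 4 and 4). The log2 fold change was -0.08 (SE 0.08, edgeR adjusted p = 0.967) for puerarin against vehicle and 0.13 (SE 0.07, adjusted p = 0.592) for genotype on vehicle. For puerarin against vehicle it was -0.02 without db/db puerarin S144 and -0.16 without db/db puerarin 2 and 3. Lamp2, an X-linked gene needed for fusion with lysosomes, had 694, 642 and 594 CPM in db/db puerarin, 768, 691, 597 and 641 CPM in db/db vehicle and 780, 699, 571 and 490 CPM in db/m libraries. Groups overlapped widely, with log2 fold changes of -0.01 (interval -0.24 to 0.22) for puerarin against vehicle and 0.1 (interval -0.11 to 0.31) for genotype on vehicle.

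Among the transcription factors, Tfeb, the regulator of lysosomal genes, had 66.7, 67.1 and 56.9 CPM in db/db puerarin, 74.8, 75.7, 72.3 and 67.7 CPM in db/db vehicle and 59.7, 68.1, 69.6 and 87.7 CPM in db/m libraries. All puerarin libraries lay below all db/db vehicle libraries, with 67.1 and 67.7 CPM at the nearest points, and the db/m libraries overlapped both groups. Means were 63.6 ± 5.8 CPM in db/db puerarin, 72.6 ± 3.59 CPM in db/db vehicle and 71.3 ± 11.8 CPM in db/m libraries (SD, n = 3, 4 and 4). For puerarin against vehicle the log2 fold change was -0.2 (SE 0.13, edgeR adjusted p = 0.967). It was -0.17 within S-number libraries, where S144 is the only puerarin library, and -0.18 within group-tag libraries. It was -0.11 without db/db puerarin 3 and -0.06 without db/db puerarin 2 and 3. For genotype on vehicle it was 0.24 within S-number and -0.16 within group-tag libraries. Tfe3 averaged 150 ± 2.72 CPM in db/db puerarin, 151 ± 20.9 CPM in db/db vehicle and 140 ± 18.8 CPM in db/m libraries (SD, n = 3, 4 and 4).

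Upstream, mTORC1 (Mtor and Rptor) represses autophagy when nutrients are plentiful and AMPK (Prkaa1 and Prkaa2 encode its catalytic subunits) promotes it when energy is short. Mtor had 57.9, 56.5 and 53.4 CPM in db/db puerarin, 55.3, 59, 53.2 and 62.4 CPM in db/db vehicle and 73.6, 63.7, 60.9 and 56.2 CPM in db/m libraries. The highest library was db/m S184, and the groups overlapped. Its log2 fold change was -0.17 (SE 0.1, edgeR adjusted p = 0.646) for puerarin-treated db/db over db/m and -0.14 (SE 0.09, adjusted p = 0.64) for db/db vehicle against db/m. Rptor, which encodes the subunit that recruits mTORC1 substrates, had 66.1, 59.2 and 66.3 CPM in db/db puerarin, 64.1, 69.9, 72.6 and 71.1 CPM in db/db vehicle and 64.4, 65.7, 68.8 and 73.1 CPM in db/m libraries. For puerarin against vehicle its log2 fold change was -0.13 (SE 0.08, adjusted p = 0.967), with -0.02 within S-number and -0.2 within group-tag libraries. Prkaa2 had 38.9, 55 and 50.5 CPM in db/db puerarin, 46.6, 44.3, 42.5 and 65.7 CPM in db/db vehicle and 56, 42.7, 58.5 and 40.3 CPM in db/m libraries. As for Gabarapl1, db/db vehicle 3 was the highest and db/db puerarin S144 was the lowest.

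**Figure D4:**
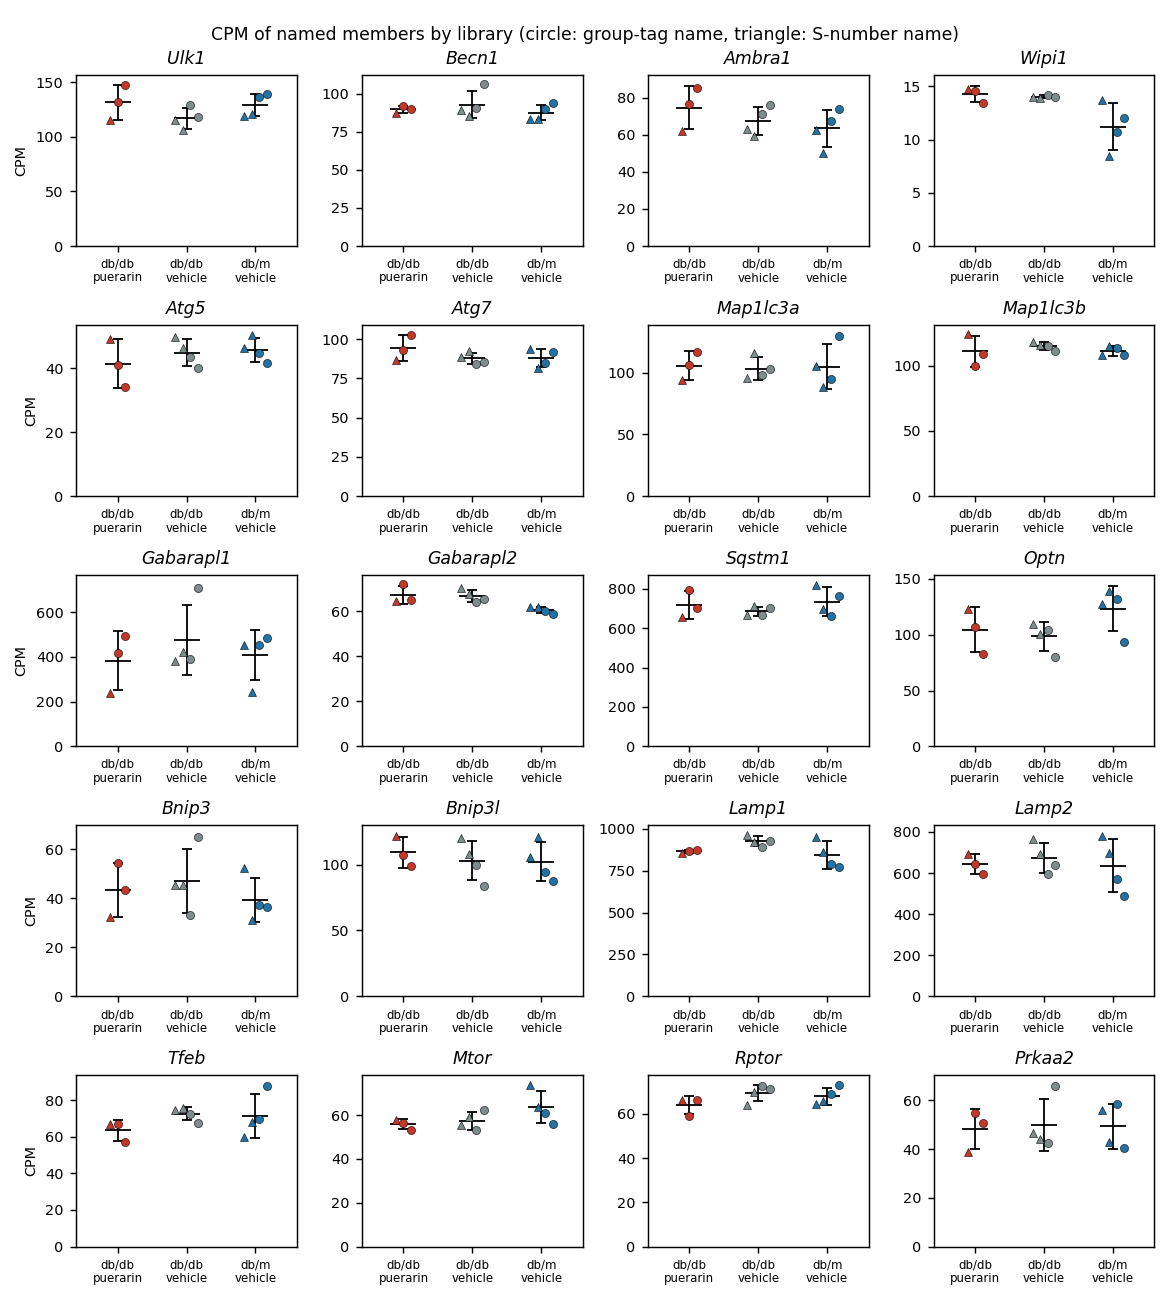
CPM of 20 named members in each library, by group (db/db puerarin, db/db vehicle, db/m vehicle), with the group mean and SD as bars; circles are group-tag and triangles S-number libraries. Gabarapl2 lies lower in all 4 db/m libraries than in the 7 db/db libraries, Gabarapl1 has single libraries far from the rest, and for Lamp2 and Bnip3l the triangles lie above most circles.

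The 2 forms of library name were compared as they stand in the titles, since both occur in every group. With group as a term, 3 of the 41 passed edgeR's test between the 6 group-tag and the 5 S-number libraries, where 6.97% of all genes passed (5.65% higher and 1.32% lower in group-tag libraries). DESeq2 called 6 (14.6%), including those 3, and 13.7% of all genes. By both tools the share of members called was near that of all genes. At an unadjusted p under 0.05 DESeq2 had 15 members and 26.6% of all genes. With edgeR there were 16 members (39%) at that unadjusted p, 4 of them higher and 12 lower in group-tag libraries, compared with 25.3% of all genes. The median log2 fold change was -0.05 for members and -0.02 for all genes. Values did not overlap for 5 members, Ambra1, Becn1 and Atg2a (higher) and Atg5 and Lamp2 (lower in group-tag libraries), where 6.71% of all genes did not overlap.

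Ambra1 (NM_001080754, chr2:91730138-91918849, plus strand) was higher in group-tag libraries, at 75 ± 6.05 CPM (SD, n = 6) against 59.5 ± 5.51 CPM in S-number libraries (SD, n = 5), a difference of 0.32 on the log2 scale (edgeR adjusted p = 0.0387, SE 0.08). The lowest group-tag library had 67.3 CPM and the highest S-number library 63.1 CPM. Bnip3l (NM_009761, chr14:66985240-67008877, minus strand) was lower, at 95.3 ± 8.35 CPM in group-tag and 115 ± 7.79 CPM in S-number libraries, with a log2 fold change of -0.3 (SE 0.07, adjusted p = 0.0402). One group-tag library, db/db puerarin 2 with 107 CPM, lay above the lowest S-number library with 106 CPM. A processed pseudogene shares 34.9% of the Bnip3l transcript. Lamp2 (NM_010685, chrX:38419503-38456460, minus strand) was lower, at 589 ± 56 CPM in group-tag and 726 ± 43.6 CPM in S-number libraries, with a log2 fold change of -0.31 (SE 0.08, adjusted p = 0.0486). The highest group-tag library had 642 CPM and the lowest S-number library 691 CPM. All 3 Lamp2 transcripts had the same direction, with means in group-tag libraries against S-number libraries of 262 against 322 CPM for NM_010685, 186 against 228 CPM for NM_001017959 and 142 against 176 CPM for NM_001290485.

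Cell type markers moved with the name form as well. All 9 loop and distal tubule markers and 9 of 10 collecting duct markers were higher in group-tag libraries, 6 and 5 of them past the test, with median log2 fold changes of 1.27 and 1.42. Of the podocyte markers 14 of 15 were lower (median -0.26, 1 past the test), as were 10 of 10 endothelial markers (median -0.31, 1 past the test). All 12 proximal tubule markers were lower as well (median -0.36, 0 past the test). Of the 10 mesangial and smooth muscle markers, 5 were higher and 5 lower, from -0.45 to 2.32 with a median of 0.14. Of those higher, 4 passed the test. The tubule covariate is a mean over lists that moved in opposite directions here. With it in the fit, Lamp2 kept its call at -0.37 (edgeR adjusted p = 0.0208), while Ambra1 was at 0.24 (adjusted p = 0.0849) and Bnip3l at -0.23 (adjusted p = 0.0918). The calls also depended on single libraries: without any 1 of 9 of the 11 libraries, 0 of the 41 members passed. Without db/m S184 or db/db vehicle 1 there were 3, 2 of them shared with the full set of libraries. Calls over all genes changed too, from 957 in the full set to between 163 and 670 in those 9 runs. They were 1492 without db/m S184 and 1791 without db/db vehicle 1. The part of tubule content in the other values was not tested, and without db/db puerarin 2 and 3, which go against the male label, 0 of the 41 passed.

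**Figure D5:**
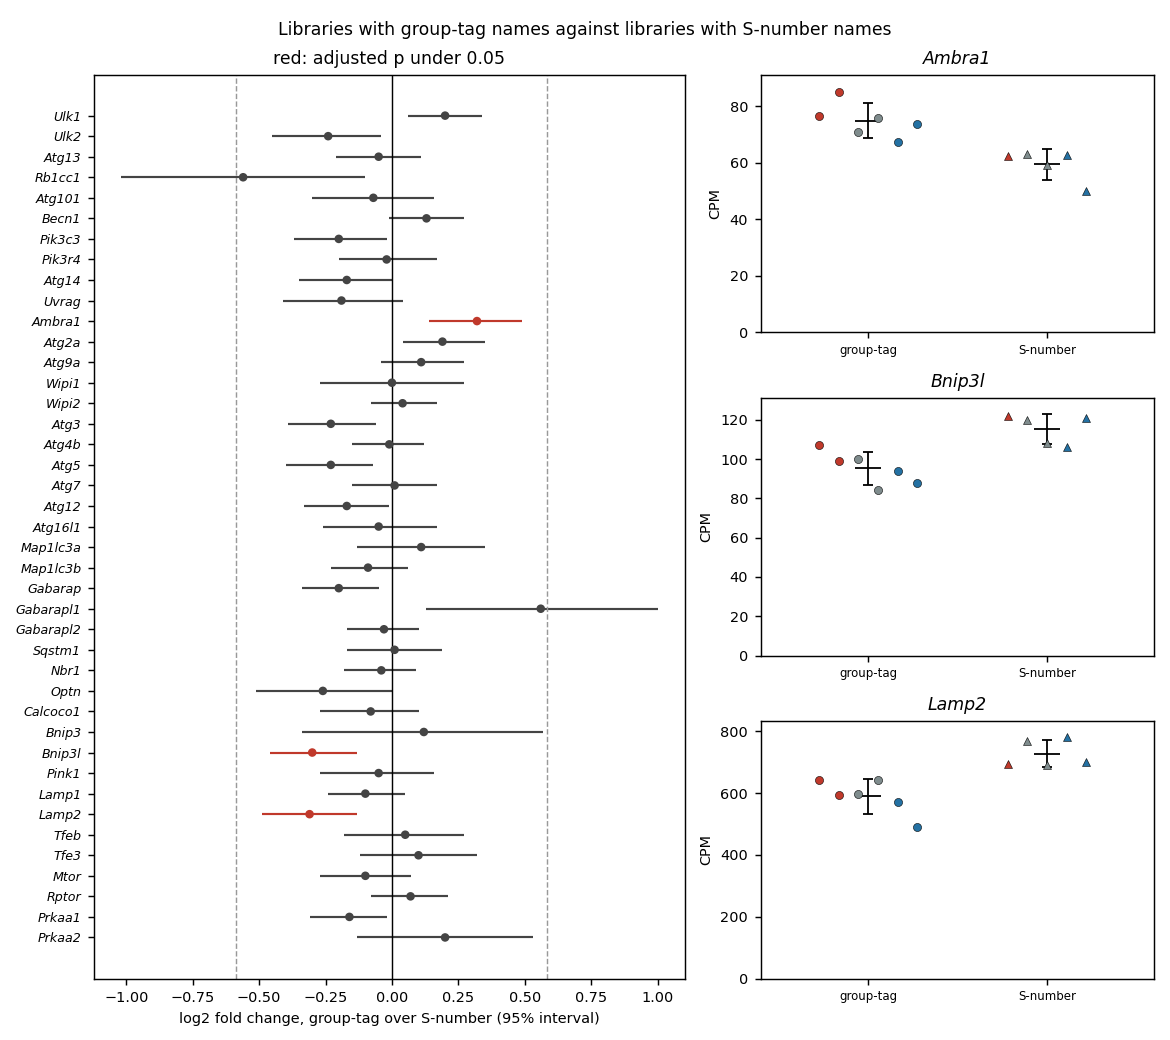
Left, log2 fold change of each member between group-tag and S-number libraries with its 95% interval, in red where the adjusted p was under 0.05; right, CPM by library of the 3 members in red, coloured by group, with mean and SD. Ambra1 and Lamp2 do not overlap between name forms, at 67.3 against 63.1 CPM and 642 against 691 CPM at the nearest points.

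The wider pathway was read in 6 further lists. Of 33 other genes of the autophagy machinery, 42 lysosomal hydrolases and membrane proteins, 16 subunits of the vacuolar proton pump, 26 genes of mTORC1 and its regulators, 10 of AMPK and 8 other transcription factors, 0 passed the test in any comparison between groups. Of all genes, 0% to 0.182% passed in these comparisons, so the lists do not stand apart from all genes by this count. Mitf, a relative of Tfeb, had the smallest adjusted p of these lists for genotype on vehicle, with 38.9 ± 10.8 CPM in db/db vehicle and 26.7 ± 7.06 CPM in db/m libraries and a difference of 0.55 on the log2 scale (edgeR adjusted p = 0.138, SE 0.12). Lipa, the lysosomal acid lipase, was at 0.39 (adjusted p = 0.161) and Ppt1, a lysosomal thioesterase, at 0.4 (adjusted p = 0.199) in that comparison. Of the proton pump subunits, 14 of 16 had a positive log2 fold change there, with a median of 0.16. Of all 13734 genes 7348 had one, with a median of 0.02. The level of the pump list was -0.24 in db/db puerarin S144, -0.25 in db/m S185 and 0.26 in db/db vehicle 3. Loop and collecting duct markers were at their extremes in the same libraries, and their part in the pump values was not tested.

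With puerarin, 37 of 42 lysosomal hydrolases and membrane proteins had a negative log2 fold change against db/db vehicle, with a median of -0.16 compared with -0.02 for all genes, and 7 of the 42 had an unadjusted p under 0.05 (16.7%, compared with 4.21% of all genes). Their level by library was between -0.12 and -0.06 in db/db puerarin, between 0.03 and 0.2 in db/db vehicle and between -0.16 and 0.16 in db/m libraries. The smallest p-values in the lists belonged to Sesn2, a stress-induced inhibitor of mTORC1 (9.36 ± 1.49 CPM in db/db puerarin and 12.7 ± 0.973 CPM in db/db vehicle, log2 fold change -0.49), Naglu (log2 fold change -0.29) and Foxo3 (log2 fold change -0.39), each with an edgeR adjusted p of 0.967. The 12 myeloid markers, whose cells are rich in lysosomes, were all lower in that comparison, with a median of -1.02, and their summed level ran from 133 to 237 CPM in db/db puerarin libraries and from 147 to 892 CPM in db/db vehicle libraries, with the top value in db/db vehicle 1. Their part in the hydrolase values was not tested. Against db/m mice, Gaa, the lysosomal alpha-glucosidase, had the smallest adjusted p of the lists with puerarin, at 136 ± 4.74 CPM in db/db puerarin and 181 ± 11.9 CPM in db/m libraries, with no overlap and a difference of -0.42 on the log2 scale (edgeR adjusted p = 0.077, SE 0.08). Foxo3 followed at -0.52 (adjusted p = 0.239) and Naglu at -0.35 (adjusted p = 0.243).

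Between name forms, 9 of the 135 genes of these lists passed, or 6.67%, a share near the 6.97% of all genes. Higher in group-tag libraries were Mitf (log2 fold change 0.7, edgeR adjusted p = 0.00753), Rragd (0.75), Prkag2 (0.57), Atg4d (0.46), Tsc1 (0.43), Strada (0.34) and Nprl3 (0.28), and lower were Lipa (-0.38) and Lamtor5 (-0.32), with adjusted p-values of at most 0.0477.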

How the data were processed

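Glomerular RNA was sequenced as 11 libraries. Per the labels' protocols, RNA was treated with DNase. The submitters' processing notes name BWA, limma and the build mm10, without versions, and no source at hand says how reads were assigned or whether strand was used. The authors deposited whole-number counts for 22320 RefSeq transcripts in 15 count columns, 4 of which fit no sample and stayed out. Log2 values that the authors deposited beside them equal the log2 of these counts plus a constant per library and were not tested; 10 single-library files repeat them.

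Counts were summed to 13734 genes, 13 blank cells were set to 0, and 50 symbols turned into dates were restored. Of 4562 genes with several transcripts, 154 have transcripts with identical counts in all 11 libraries, so shared reads appear to have been counted once per transcript. An even split of reads was not excluded. Totals were 35369703 to 44244460, or 21994359 to 27671308 over the highest transcript of each gene. If shared reads were counted more than once, summed counts are less precise than they look.

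edgeR 4.0.16 in R 4.3.3 (glmQLFit and glmQLFTest, TMM, two-sided, Benjamini-Hochberg over 13734 genes, adjusted p under 0.05) was fitted to the 11 libraries together, with terms for group and for name form, and with 7 residual and 3.14 prior degrees of freedom. A count of at least 1 in 3 libraries was required, which removed 0 genes. Intervals of 95% use the quasi-likelihood standard error. CPM use TMM factors. The fit was also run on simulated data, as a check of the code with a requirement on large changes only. It does not measure the power to find changes as small as those of the members between groups. Alternatives were median-ratio factors, library totals, DESeq2 1.42.0, the highest transcript, stricter filters, other terms and samples, a tubule covariate and each library left out. No pair of libraries of a group agreed within sampling noise.

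Members and gene lists were chosen with earlier results of these data known. Values by library are given for members past the test, for the 5 with the smallest p in each comparison between groups, and for 14 core members. Of the pathway lists, genes past the test and the 3 with the smallest p per comparison between groups are named. Overlaps and copies come from GENCODE annotation of mm10, promoters from RefSeq.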

Additional observations from a re-analysis of the deposited data

Results flagged for a closer look

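Dixon's test was applied to the 82 sets of 4 libraries formed by 41 members in the db/db vehicle and db/m vehicle groups, and chance alone marks about 1 in 20 such sets. It marked 3. Gabarapl1 had 707 CPM in db/db vehicle 3, and the other db/db vehicle libraries had 381 to 420 CPM. Gabarapl1 also had 243 CPM in db/m S185, and the other db/m libraries had 452 to 486 CPM. These are the libraries with the highest level of loop and distal tubule markers (1.09) and the lowest among db/m libraries (-1.42). Atg16l1, which positions the ATG12-ATG5 conjugate on the membrane, had 73.5 CPM in db/db vehicle S153, and the other db/db vehicle libraries had 65.1 to 66.4 CPM.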

How the results depend on the processing

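In the 3 comparisons between groups, 0 of the 41 members passed under every alternative run, each library left out and DESeq2 included. The replicate block, which treats the tag number as a block, also gave 0 members in each. Over all genes it called 56 for genotype on vehicle and 49 for puerarin against db/m, compared with 6 and 25 in the main fit. For puerarin against vehicle both fits called 0 genes. Puerarin and db/m share 2 tag numbers, and same-numbered deviations had a correlation of 0.06 across genes. With 1 difference per group, that value cannot decide whether the numbers pair the samples. The name form cannot be estimated in the block fit. Between name forms, the 3 calls became 1 with library totals alone, 6 with DESeq2 (all 3 among them) and 0 without db/db puerarin 2 and 3, the libraries that go against the male label; leaving out 1 library at a time gave 0 to 3. Over all genes, calls between name forms ran from 163 to 1791 with 1 library left out, compared with 957 in the full set. The median of members there was -0.02 with library totals alone and without db/db puerarin 2 and 3, and -0.06 to -0.02 with 1 library left out. For puerarin against vehicle, the median was 0.05 in S-number libraries alone, -0.05 in group-tag libraries alone, 0.02 without db/db puerarin 2 and 3 and -0.04 to 0 with 1 library left out. For puerarin against db/m it was 0.04 in S-number libraries alone, 0.03 without db/db puerarin 2 and 3 and -0.02 to 0.04 with 1 library left out. The cause of these shifts was not tested. With 3 or 4 libraries a group, the 95% intervals of Gabarapl1, Rb1cc1 and Bnip3 reached past a 1.5-fold change in each comparison between groups.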
